A study of Ovis aries with 22 samples.

Results

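Chemokines and their receptors were followed in the sinus wall of sheep (Ovis aries) great arteries by RNA sequencing. The genes were taken by name: rows of the count tables whose symbol begins with CCL, CXCL, CX3CL, XCL, CCR, CXCR, CX3CR, XCR or ACKR and a digit, without CCL5. The 42 genes described here, of 26200, are 12 CC ligands, 10 CXC ligands, CX3CL1 and XCL1, 7 CC receptors, 6 CXC receptors, CX3CR1 and XCR1, and 3 atypical receptors. Autograft sinus came from 3 sheep whose pulmonary root had been moved into the aortic position, as in the Ross operation, and was sampled 6 months later. Aortic sinus and pulmonary sinus were each taken from 4 further sheep (D3 to D6, replicates 1 to 4), every animal giving both. The design text calls these 4 sheep non-operated, but the treatment label of aortic replicate 1 (animal D3) is Ross surgery, so results were also computed without that library and without animal D3. No group had sham surgery, so the operation, the new position and the animals cannot be told apart.

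Chemokines are small secreted proteins that bind to matrix and to cell surfaces and direct the movement of leukocytes along their gradient. They signal through receptors coupled to inhibitory G proteins, most of which are carried by leukocytes. Atypical receptors bind the same ligands without that coupling and remove, transport or display them. In an artery wall, chemokines are made by endothelium, smooth muscle, fibroblasts and resident or entering leukocytes, and some, such as CXCL12 and CCL21, are made in the absence of inflammation.

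Each library held between 17380599 and 20741334 counts, the sum of 2 sequencing runs. The edgeR filter kept 14979 genes, which need a level of about 0.56 CPM (counts scaled to the size of the library) in at least 3 libraries. Of the 42 members, 24 passed and 18 did not. CCR4, CXCR6 and XCL1 passed through the 3 autograft libraries alone, so these had to be higher there to be tested at all. Autograft replicate 3 and pulmonary replicate 1 stood apart in several members, as given below. Smooth muscle markers of the wall (6 genes, MYH11 and ACTA2 among them) summed to between 23450 and 46450 CPM in the autograft libraries, below all native ones (47440 to 80280). MYOCD and MYH11 of that list were called lower in the autograft than in pulmonary sinus (5.29% of all genes), and MYOCD also than in aortic sinus (1.43%).

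Levels of different genes can be set side by side only per transcript length, for which the deposited FPKM values were used (mean of 2 runs, 26 members). CXCL12, the ligand of CXCR4 that holds leukocytes and progenitor cells in tissue, had the highest median FPKM in the autograft, 124, ahead of ACKR3, a scavenger of CXCL12, at 53.1 and CXCL16 at 35.5. In aortic sinus the order began with CCL21, a ligand of CCR7 made by lymphatic endothelium, at 124 FPKM, followed by ACKR3 at 44.4 and CXCL12 at 38.98. In pulmonary sinus it began with CXCL12 at 33.8, ACKR3 at 26.7 and CCL21 at 19.8. The lowest autograft library had 75.3 FPKM of CXCL12 and the highest had 111 of ACKR3, so even the upper neighbours in the order overlapped between genes.

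**Figure D1:**
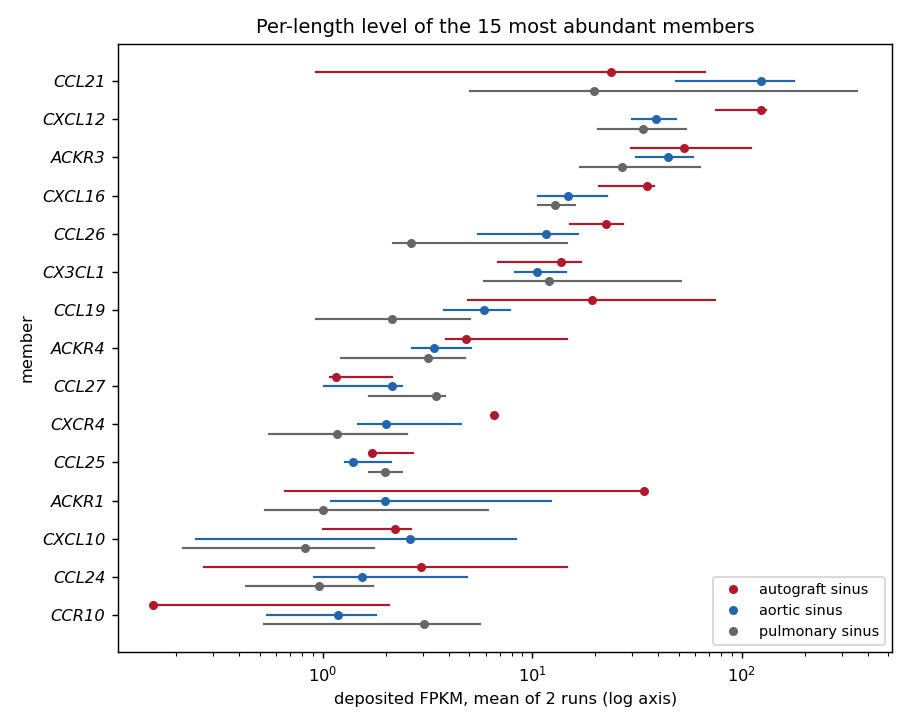
Deposited FPKM (log axis, mean of 2 runs) of the 15 members with the highest median over the 11 libraries; points are group medians and lines run from the lowest to the highest library of 3 autograft, 4 aortic and 4 pulmonary libraries. CXCL12 in the autograft (75.3 to 131) lies to the right of both native groups, while CCL21 spans 0.928 to 66.5 in the autograft and 5.04 to 357 in pulmonary sinus.

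Summed markers of T and NK cells and of B and plasma cells set the autograft apart from the native libraries. Those of macrophages, of endothelium and of neutrophils and mast cells overlapped between the groups. The 8 T and NK cell markers summed to between 34.4 and 42.3 CPM in the autograft, 6.14 and 10.3 in aortic sinus, and 2.57 and 7.80 in pulmonary sinus. Of these markers 6 were called higher in the autograft than in pulmonary sinus and 3 than in aortic sinus. Of all genes tested, 6.05% and 0.948% were called higher in these comparisons. Whether marker genes passed the filter through the autograft alone was not computed. B and plasma cell markers (6 genes, 2 of them tested) summed to 15.9, 62.0 and 21.0 CPM in the autograft, above the native range of 5.31 to 9.08. Both tested genes, BANK1 and JCHAIN, were called higher than in pulmonary sinus, and BANK1 also than in aortic sinus. Macrophage markers (7 measured) reached 1192 and 802 CPM in autograft replicates 1 and 2 but 126 in replicate 3, inside the native range of 53.7 to 388. All 7 had a positive log2 fold change against both native groups. CD14 and CD68 were called higher than in pulmonary sinus, and 0 were called against aortic sinus. Endothelial markers (7 genes) reached 1542 and 902 CPM in autograft replicates 2 and 3 but 130 in replicate 1, against 113 to 552 in the native libraries. These 7 also had positive log2 fold changes against both native groups. NOS3 and TEK were called higher than in pulmonary sinus, and 0 were called against aortic sinus. Neutrophil and mast cell markers (5 measured) were at 31.6 CPM in autograft replicate 3 and between 0.971 and 15.8 elsewhere. In a piece of wall, more cells of a type and more RNA per cell cannot be told apart, and the part of these cell types in the results below was not tested.

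**Figure D2:**
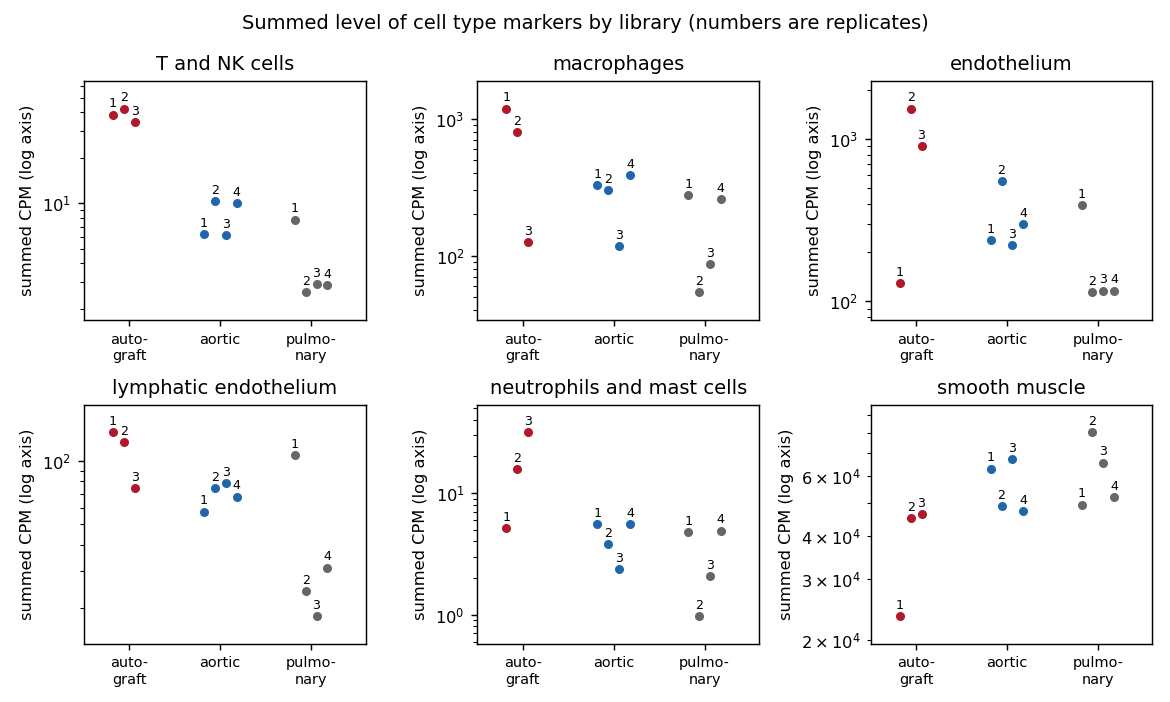
Summed CPM (log axis) of the markers of 6 cell types in each library, with the replicate number beside each point. T and NK cell markers separate the autograft (34.4 to 42.3) from all native libraries (2.57 to 10.3), while autograft replicate 3 is low in macrophage markers and autograft replicate 1 in endothelial ones.

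Autograft was first set against pulmonary sinus, from which such a graft is taken. 7 members were called higher in the autograft and 0 lower, by edgeR's quasi-likelihood test with Benjamini-Hochberg adjustment over all genes at 0.05. They were the ligands CCL19, CXCL12, CXCL16 and XCL1 and the receptors CCR4, CXCR4 and CXCR6. Of all genes tested, 6.05% were called higher and 5.29% lower in this comparison. Without CCR4, CXCR6 and XCL1, which passed the filter through the autograft alone, 4 of 21 were called higher, against 5.61% of all genes that pass without the autograft. The autograft libraries lay above all pulmonary ones in 7 of the 24 tested members (CCL26 and the called genes other than CCL19), against 10.9% of all genes. They lay below in 0, against 11.2%. Of the 21 members that pass without the autograft, 4 lay above, against 1499 of the 14557 genes that do. The autograft also lay above all pulmonary libraries in 4 of the 18 members not tested, CCR3, CCR7, CCR8 and CXCR3. Their lowest autograft library held between 2 and 6 reads, so few reads decide this. The share over all genes not tested was not computed. An unadjusted p under 0.05 was reached by 13 of the 24 tested members (30.6% of all genes), and 19 had a positive log2 fold change (50.1% of all genes). By DESeq2 10 were called, where it called 20.0% of all genes. The 13, the 19 and the 10 all include CCR4, CXCR6 and XCL1, tested through the autograft alone. CXCR4 was called whichever of the 11 libraries was left out. The count of 7 fell to 3 without pulmonary replicate 3 or autograft replicate 2 and to 4 without pulmonary replicate 2 or 4, and it was 9 without pulmonary replicate 1.

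**Figure D3:**
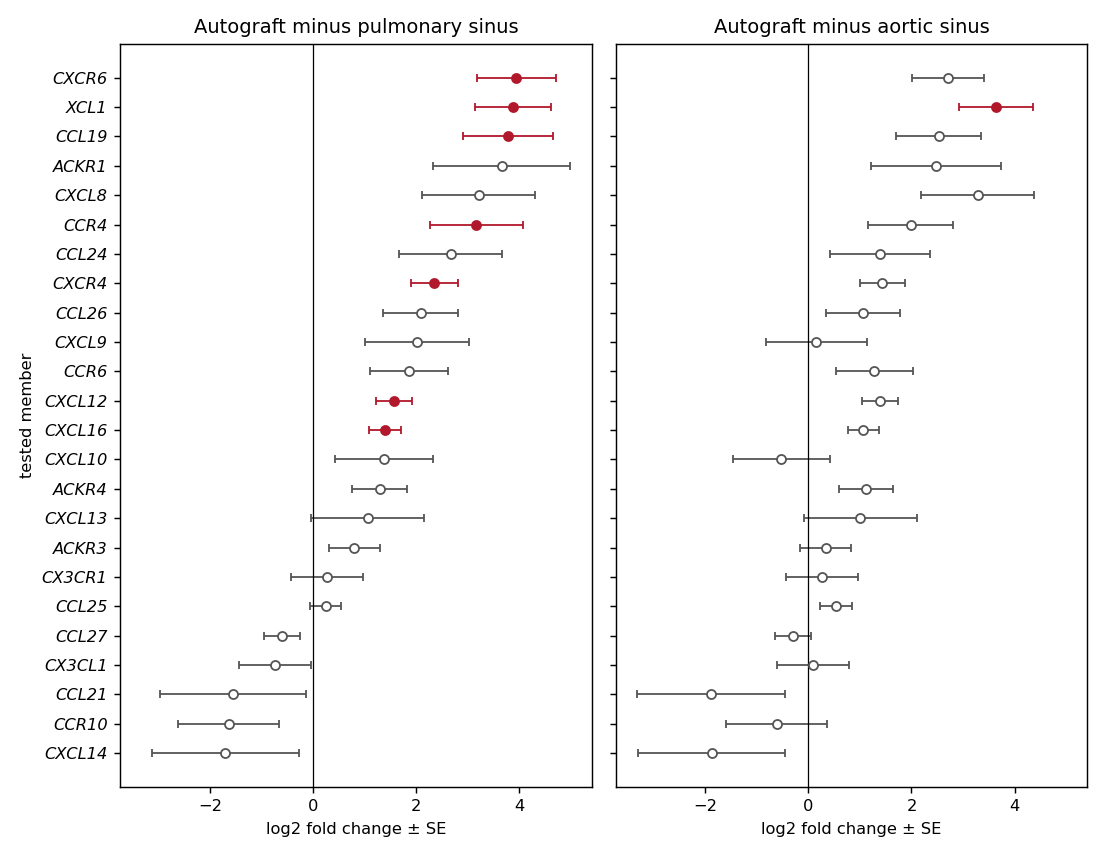
Log2 fold change ± SE of the 24 tested members in the autograft against pulmonary sinus (left) and against aortic sinus (right), from one edgeR fit; filled red points were called. On the left 19 of the 24 lie above 0 and 7 are called; on the right XCL1 is called.

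Autograft was next set against aortic sinus, the wall that normally holds the position it was moved to. XCL1 was the 1 member called higher and 0 were called lower, where 0.948% of all genes were called higher and 1.43% lower. XCL1 was tested through the autograft alone, and of the 21 members that pass without it 0 were called. All autograft libraries lay above all aortic ones for 6 of the 24 tested members (CCL26, CCR4, CXCL12, CXCR4, CXCR6 and XCL1), against 9.77% of all genes. Below all aortic ones they lay for 0, against 10.8%. Of the 21 members that pass the filter without the autograft, 3 lay above, against 1352 of the 14557 genes that do. The autograft also lay above all aortic libraries in 4 of the 18 members not tested, CCR3, CCR8, CXCR3 and XCR1. Their lowest autograft library held between 3 and 6 reads, and the share over all genes not tested was not computed. 8 of the 24 had an unadjusted p under 0.05 (23.0% of all genes) and 19 a positive log2 fold change (50.1%). Both counts include CCR4, CXCR6 and XCL1, which were tested through the autograft alone and so had to be higher there. DESeq2 called 7 of the 24, CXCL8 and 6 of the 7 genes named above, with 9.81% of all genes called. CXCR6 and XCL1 are among those that DESeq2 called. limma-voom called 3 (CXCR4, CXCR6 and XCL1), also with animal as a random block. XCL1 lost its call without any 1 of the 3 autograft libraries (adjusted p = 0.0537 to 0.0951), without aortic replicate 1 (0.0787), 3 (0.0871) or 4 (0.0739), and with animal D3 left out (0.0703). Leaving out pulmonary replicate 1 gave 3 called members and leaving out pulmonary replicate 2 gave 2. The 2 comparisons share the autograft libraries.

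The third comparison set aortic against pulmonary sinus, from the same animals per the labels. edgeR called 0 members, where 0.0% of all genes were called, and DESeq2, limma-voom and edgeR with animal as a block also called 0. An unadjusted p under 0.05 was reached by 0 of the 24 tested members and by 2.04% of all genes, and 19 had a positive log2 fold change, against 50.8%. The aortic libraries lay above all pulmonary ones in 0 members (0.714% of all genes) and below in 0 (0.701%).

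Among CC ligands, CCL19 rose in the autograft against pulmonary sinus. CCL19 is the partner of CCL21 in guiding CCR7-bearing lymphocytes and dendritic cells. Its CPM was 3.26, 53.6 and 13.2 in autograft replicates 1 to 3, then 2.79, 5.55, 2.93 and 4.94 in the aortic libraries and 3.84, 0.514, 1.73 and 0.629 in the pulmonary ones. Autograft replicate 2, which also had the highest B and plasma cell and endothelial marker sums, was the high library, and replicate 1 lay below pulmonary replicate 1. The log2 fold change was 3.79 ± 0.87 (SE, adjusted p = 0.0233) against pulmonary sinus and 2.52 ± 0.82 (0.112) against aortic sinus. The first call ended without autograft replicate 2 (0.0996), pulmonary replicate 2 (0.0640), 3 (0.0659) or 4 (0.0527), with the 2 groups fitted alone (0.0679) and with limma-voom (0.0935).

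CCL21 went another way. It stood at 0.90, 65.2 and 21.3 CPM in the autograft, 48.5, 158, 141 and 84.1 in aortic sinus, and 299, 30.4, 3.75 and 6.12 in pulmonary sinus. Pulmonary replicate 1 was the highest of the 11 libraries and autograft replicate 1 the lowest. The log2 fold change was -1.54 ± 1.42 (adjusted p = 0.492) against pulmonary and -1.89 ± 1.43 (0.458) against aortic sinus, and the first turned to 1.10 without pulmonary replicate 1 and to 1.12 without animal D3. FLT4, the receptor of lymphatic growth factors, had its extremes in the same libraries, with 37.3 CPM in pulmonary replicate 1 and 0.281 in autograft replicate 1. PROX1, the transcription factor of lymphatic endothelium, had them there too, at 9.77 and 0.562 CPM. LYVE1, which macrophages also express, did not, and was 80.0 CPM in autograft replicate 1. The 4 lymphatic markers summed to 74.3 to 137 CPM in the autograft, 57.4 to 78.3 in aortic and 18.3 to 107 in pulmonary sinus. They did not move together: 2 of the 4 had a positive log2 fold change in each autograft comparison. The median was 0.47 against pulmonary and -0.2 against aortic sinus. PDPN was called higher in both comparisons (6.05% and 0.948% of all genes). In each comparison 1 of the 4 had all autograft libraries below those of the native group.

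CCL24 and CCL26 are eotaxins, ligands of CCR3 on eosinophils, and lie within 10 genes of each other in the RefSeq order of sheep genes. CCL26 was measured at 22.3, 17.1 and 12.6 CPM in the autograft, 12.5, 11.2, 3.27 and 6.12 in aortic sinus and 11.6, 1.31, 1.59 and 1.72 in pulmonary sinus. All 3 autograft values lay above the native ones, narrowly so for replicate 3. Its log2 fold change against pulmonary sinus was 2.09 ± 0.73 (adjusted p = 0.0823), and without pulmonary replicate 1 it was called at 3.46 (0.00365). With all libraries kept, it was called by DESeq2 (0.0169), by limma-voom (0.024) and by limma on log2(FPKM + 1) (0.036) and log2(FPKM + 0.1) (0.0342). Against aortic sinus the edgeR log2 fold change was 1.06 ± 0.71 (0.398). CCL24 was uneven inside the autograft, at 51.2, 11.2 and 1.25 CPM, with 19.7, 6.25, 3.50 and 2.79 in aortic and 6.16, 1.26, 2.76 and 3.09 in pulmonary sinus. Like the macrophage markers, CCL24 had its highest autograft value in replicate 1 and its lowest in replicate 3. The pulmonary libraries also had the same order in both (marker sums of 278, 53.7, 86.9 and 258 CPM). The aortic ones did not: replicate 4 had their highest marker sum (388) and their lowest CCL24 (2.79). A link was not tested. The CCL24 log2 fold change of 2.68 ± 1.002 (SE) against pulmonary sinus did not pass (0.0996) and did so without autograft replicate 3 (3.23, 0.0385). It was 0.90 without autograft replicate 1.

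CCL25, a ligand of CCR9 that draws lymphocytes to thymus and gut, ranged from 2.38 to 5.74 CPM over all libraries, and CCL27, a ligand of CCR10 known from skin, from 1.12 to 2.76. Neither was called in a comparison. CCL19, CCL21 and CCL27 are neighbours in the RefSeq gene order.

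CXCL12 rose in the autograft, and of the called genes it was the one with the highest level per length. Its CPM was 578, 599 and 396 in the autograft, 167, 261, 146 and 226 in aortic sinus, and 294, 85.5, 187 and 139 in pulmonary sinus. The lowest autograft library lay above all native ones, the highest of which was pulmonary replicate 1. The autograft mean of 524 ± 111 CPM (SD, n = 3) compared with 176 ± 88.9 (SD, n = 4) in pulmonary sinus. The edgeR log2 fold change was 1.57 ± 0.35 with an adjusted p of 0.0222. This call ended without autograft replicate 2 (0.0661), pulmonary replicate 3 (0.0560) or pulmonary replicate 4 (0.0518) and with the 2 groups fitted alone (0.0574). Against aortic sinus the log2 fold change was 1.39 ± 0.35 with an adjusted p of 0.0636. It was called there by DESeq2, by limma on the FPKM values and in 3 more alternatives. Fibroblast markers (6 genes) were also higher in the autograft, summing to 12610 to 15860 CPM there, 6042 to 7083 in aortic and 3163 to 8915 in pulmonary sinus. Of these markers 2, COL1A1 and DCN, were called higher in both autograft comparisons (6.05% of all genes against pulmonary and 0.948% against aortic sinus). Inside the autograft the order differed: replicate 2 had the highest CXCL12 (599) and the lowest fibroblast sum (12610). A link between them was not tested.

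CXCL16, made as a membrane-bound protein that serves both as adhesion molecule and as ligand of CXCR6, rose as well. It was at 20.8, 44.1 and 38.6 CPM in the autograft, 15.02, 24.4, 10.6 and 15.7 in aortic sinus and 16.9, 12.1, 10.4 and 13.0 in pulmonary sinus. The autograft libraries lay above the pulmonary ones, while aortic replicate 2 exceeded autograft replicate 1. The log2 fold change was 1.40 ± 0.30 (adjusted p = 0.0197) against pulmonary sinus, lost without autograft replicate 2 (0.0699), pulmonary replicate 2 (0.0578) or pulmonary replicate 3 (0.0594), and 1.07 ± 0.30 (0.0827) against aortic sinus.

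The interferon-inducible ligands CXCL9 and CXCL10, which attract CXCR3-bearing T cells, were not called, although T cell markers were higher in the autograft. CXCL9 was measured at 15.9, 11.2 and 1.65 CPM in the autograft, 0.863, 2.35, 21.98 and 9.40 in aortic sinus and 1.19, 1.37, 5.43 and 1.37 in pulmonary sinus. CXCL10 was measured at 4.44, 4.25 and 1.31 CPM in the autograft, 0.406, 1.60, 5.68 and 11.5 in aortic sinus, and 0.791, 0.228, 2.25 and 1.83 in pulmonary sinus. Their highest libraries were aortic, replicate 3 for CXCL9 and replicate 4 for CXCL10, and inside the autograft both were lowest in replicate 3. Against pulmonary sinus the autograft stood at a log2 fold change of 2.02 ± 1.01 (adjusted p = 0.200) for CXCL9 and 1.37 ± 0.95 (0.354) for CXCL10, and aortic sinus stood at 1.87 ± 0.96 and 1.90 ± 0.90. With CXCL11, which did not pass the filter, they are neighbours in the gene order.

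CXCL8, the main attractant of neutrophils, was high in 1 library. It was at 0.90, 2.10 and 12.1 CPM in the autograft, 0.0507, 1.10, 0.230 and 0.644 in aortic sinus, and 0.395, 1.03, 0.703 and 0 in pulmonary sinus. Autograft replicate 3 was far above the rest, and autograft replicate 1 lay inside the native range. The log2 fold change was 3.22 ± 1.09 (adjusted p = 0.0768) against pulmonary and 3.29 ± 1.10 (0.118) against aortic sinus, falling to 1.47 and 1.54 without autograft replicate 3. CXCL13, which guides B cells into follicles, ranged from 0 to 3.20 CPM, and CXCL14, made by epithelium and stroma, from 0 to 9.95 CPM. CXCL14 was highest in aortic replicate 2 and pulmonary replicate 1, at 9.95 and 7.51 CPM. Neither gene was called.

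CX3CL1, a membrane-anchored chemokine of endothelium, was not called. Its CPM was 18.3, 58.7 and 42.9 in the autograft, 44.8, 51.2, 28.5 and 25.7 in aortic sinus, and 18.8, 66.2, 164 and 17.2 in pulmonary sinus. The groups overlapped throughout, and pulmonary replicate 3 was the high library. Its log2 fold change against pulmonary sinus was -0.74 ± 0.71 (adjusted p = 0.512) and 0.21 without that library. Its receptor CX3CR1, carried by monocytes and cytotoxic lymphocytes, ranged from 0.457 to 3.44 CPM and was not called either.

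XCL1, a chemokine of activated cytotoxic T and NK cells, was the member called in both autograft comparisons. The libraries held 17, 17 and 13 reads of it in the autograft, 1, 3, 0 and 1 in aortic sinus and 2, 0, 1 and 1 in pulmonary sinus. No native library reached the level of the lowest autograft library, but XCL1 passed the filter through the autograft alone, which fixed this. In CPM the autograft mean was 0.895 ± 0.136 (SD, n = 3), and the fitted log2 fold changes were 3.89 ± 0.74 (adjusted p = 0.0142) against pulmonary and 3.64 ± 0.71 (0.0338) against aortic sinus. With so few native reads these fold changes depend on the prior count of the fit. How reads shared by near-identical copies were counted is not stated, so XCL1, CXCR1 and CXCR2 are uncertain in this respect. Its receptor XCR1, a mark of cross-presenting dendritic cells, did not pass the filter, with 20, 6 and 4 reads in the autograft and 0 to 8 in native libraries. CLEC9A, a marker of the same dendritic cells, was at 0.225 CPM in autograft replicate 1 and at 0 in the other 10 libraries. The whole list of 5 dendritic cell markers summed to 8.94 to 12.05 CPM in the autograft, 3.56 to 9.29 in aortic and 2.97 to 7.29 in pulmonary sinus. All 4 tested ones had a positive log2 fold change in both autograft comparisons. FLT3 was called higher than in pulmonary sinus (6.05% of all genes), and 0 were called against aortic sinus (0.948%).

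**Figure D4:**
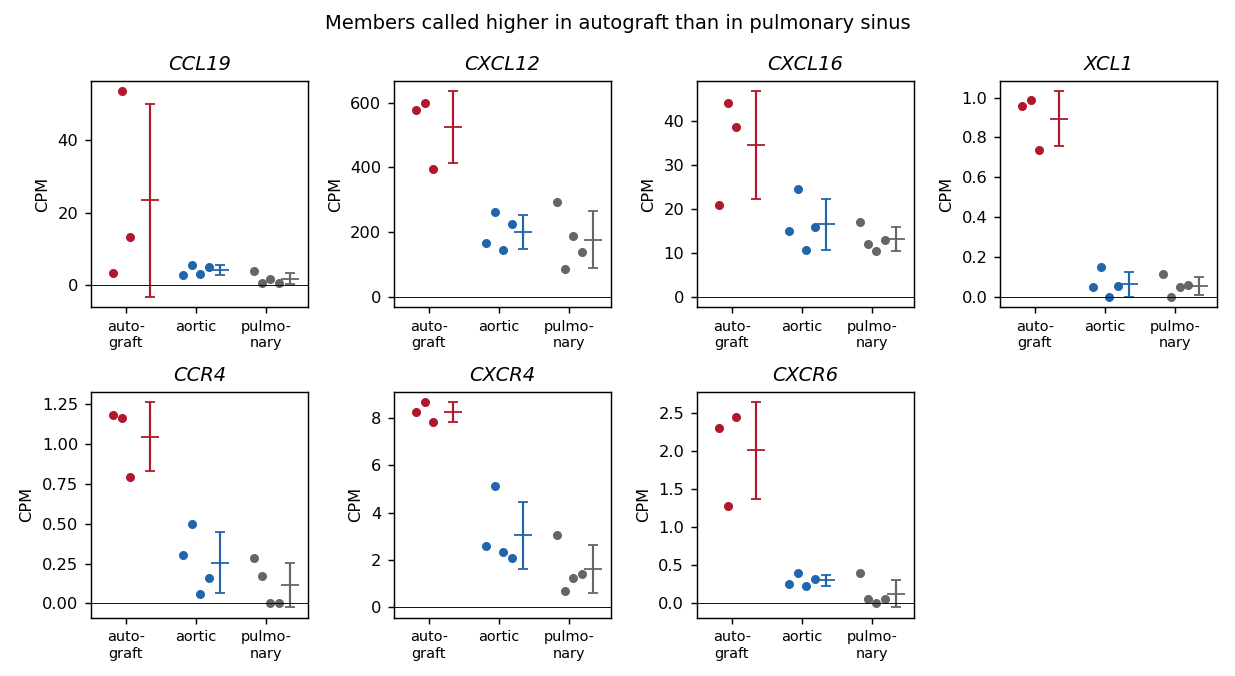
CPM of the 7 members called higher in autograft than in pulmonary sinus; points are libraries, the bar beside them is the mean ± SD of 3 autograft, 4 aortic and 4 pulmonary libraries, and the thin line marks 0. The autograft libraries of CXCR4 (7.84 to 8.67) lie close together, whereas those of CCL19 run from 3.26 to 53.6.

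Among the CC receptors, CCR4 rose in the autograft. CCR4, a receptor of helper and regulatory T cells, was at 1.18, 1.16 and 0.795 CPM in the autograft, 0.304, 0.500, 0.0574 and 0.161 in aortic sinus, and 0.282, 0.171, 0 and 0 in pulmonary sinus. All autograft libraries were above all native ones, as they had to be for a gene that passed the filter through the autograft alone. Its log2 fold change was 3.17 ± 0.90 (adjusted p = 0.0463) against pulmonary and 1.99 ± 0.83 (0.184) against aortic sinus. That call was at the edge: leaving out a library ended it in 9 of 11 cases (0.0507 to 0.107), the exceptions being aortic replicate 2 and pulmonary replicate 1.

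CCR6, the receptor of CCL20 on B cells and a subset of T cells, was at 3.99, 1.34 and 0.398 CPM in the autograft, 1.01, 0.850, 0.344 and 0.913 in aortic sinus and 0.904, 0.114, 0.375 and 0.686 in pulmonary sinus. Autograft replicate 1 was the high library, and the log2 fold change of 1.87 ± 0.76 against pulmonary sinus did not pass (0.124). CCR10, the receptor of CCL27 and CCL28, ranged from 0.113 to 3.14 CPM, with its highest values in pulmonary replicates 2 and 3, and was not called.

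CXCR4, carried by most leukocytes and by some endothelial cells, rose in the autograft and was even inside that group. It was at 8.27, 8.67 and 7.84 CPM in the autograft, 2.59, 5.15, 2.35 and 2.09 in aortic sinus and 3.05, 0.685, 1.26 and 1.43 in pulmonary sinus. The 3 autograft libraries lay above all 8 native ones. The mean of 8.26 ± 0.419 CPM (SD, n = 3) compared with 1.61 ± 1.01 (SD, n = 4) in pulmonary sinus. By edgeR its log2 fold change was 2.36 ± 0.46, at an adjusted p of 0.0147. Against aortic sinus the log2 fold change was 1.44 ± 0.44 (0.101), called by DESeq2 and limma-voom.

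CXCR6, the CXCL16 receptor of tissue-resident T and NK cells, was at 2.31, 1.28 and 2.44 CPM in the autograft, 0.254, 0.400, 0.230 and 0.322 in aortic sinus and 0.395, 0.0571, 0 and 0.0572 in pulmonary sinus. Every autograft library exceeded every native one, which follows from passing the filter through the autograft alone. The log2 fold change was 3.94 ± 0.77 (adjusted p = 0.0149) against pulmonary sinus and 2.71 ± 0.70 (0.0672) against aortic sinus, where 7 alternatives called it. CXCR6 lies among the neighbours CCR3, XCR1 and CCR9 in the RefSeq order.

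The atypical receptors were not called by edgeR, whereas DESeq2 called ACKR1 higher than in pulmonary sinus (log2 fold change 3.68, adjusted p = 0.0370). ACKR1, which takes up chemokines on venular endothelium and red cells, was at 1.80, 120 and 112 CPM in the autograft, 4.77, 41.4, 2.64 and 7.04 in aortic sinus and 18.6, 1.88, 1.17 and 2.92 in pulmonary sinus. Autograft replicates 2 and 3 were the high libraries and replicate 1 lay at the native floor. VWF, a marker of endothelium, had the same split, with 593 and 328 CPM in autograft replicates 2 and 3 and 29.1 in replicate 1. The ACKR1 log2 fold change was 3.67 ± 1.33 (adjusted p = 0.0914) against pulmonary sinus, called by edgeR without autograft replicate 1 (4.25, 0.0482), pulmonary replicate 1 (5.28, 0.0329) or animal D3 (5.30, 0.0402), and 2.47 ± 1.26 (0.268) against aortic sinus.

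ACKR4, which removes CCL19 and CCL21, was at 110, 34.6 and 31.2 CPM in the autograft, 27.5, 21.4, 20.0 and 38.8 in aortic sinus, and 34.4, 7.76, 17.6 and 35.3 in pulmonary sinus. Autograft replicate 1 was the high library. Its log2 fold change was 1.30 ± 0.53 (adjusted p = 0.127) against pulmonary and 1.12 ± 0.53 (0.236) against aortic sinus, and 0.47 and 0.30 without autograft replicate 1. ACKR3 was at 222, 124 and 66.1 CPM in the autograft, 148, 135, 75.5 and 75.3 in aortic sinus and 150, 50.4, 39.1 and 74.7 in pulmonary sinus. The 3 groups overlapped, and its log2 fold change was 0.80 ± 0.49 (0.288) against pulmonary sinus. Autograft replicate 1 thus held the highest CCL24, CCR6, ACKR3 and ACKR4 of the 11 libraries, along with the highest macrophage marker sum, and the lowest CCL21.

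**Figure D5:**
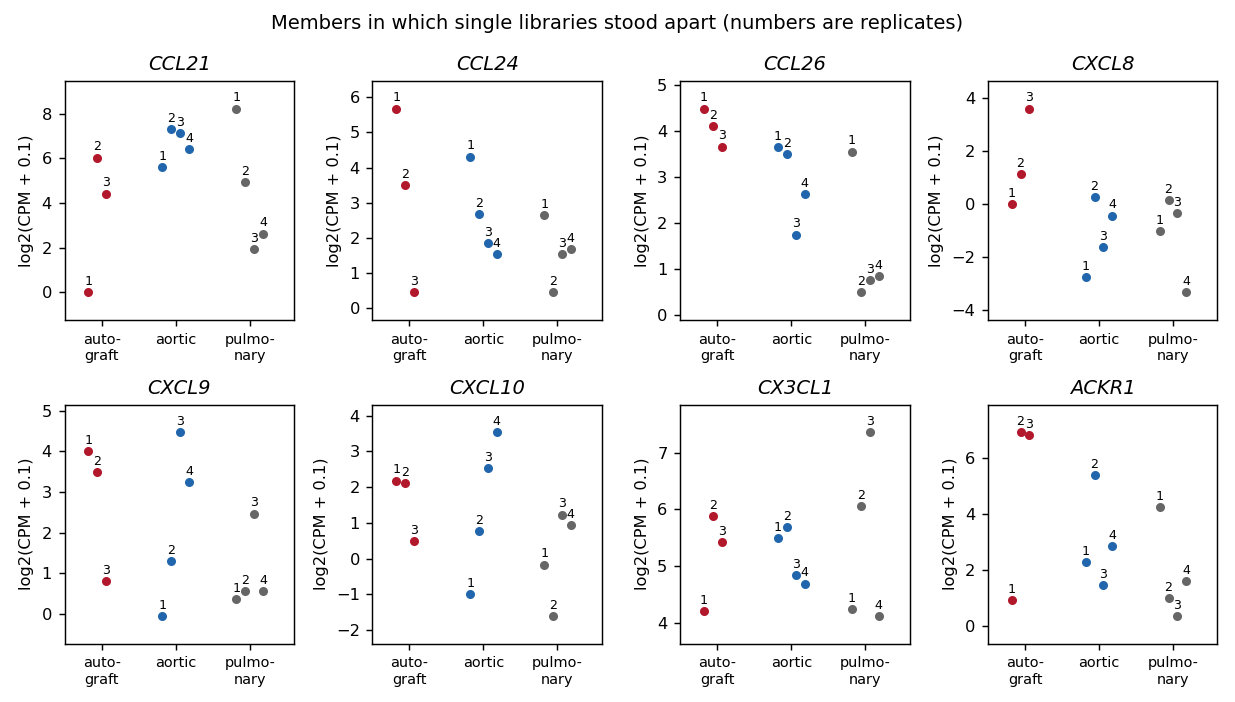
Log2(CPM + 0.1) of 8 members in each library, with the replicate number beside each point. Autograft replicate 1 is low in CCL21 and ACKR1 and high in CCL24, autograft replicate 3 is high in CXCL8, pulmonary replicate 1 is high in CCL21 and CCL26, and pulmonary replicate 3 in CX3CL1.

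Of the 18 members under the filter, CXCL17 had 0 reads. The largest count in a library was 2 for CCL20, CCL28 and CXCR5, 4 for CCL1, CCL17 and CCL22, 6 for CCR3, 8 for CCR9, 10 for CXCR3, 11 for CXCL11, 18 for CCL16, CCR8 and CXCL1, 20 for XCR1, 58 for CXCR1, 67 for CCR7 and 160 for CXCR2. A count of 0 allows up to 3 reads, or 0.145 to 0.173 CPM at these depths. The following genes were singled out after their values were seen. CXCR1 and CXCR2, the neutrophil receptors of CXCL8, had their 58 and 160 reads in autograft replicate 3, and no other library had more than 5 of either. CCR7, the lymphocyte and dendritic cell receptor of CCL19 and CCL21, had 67 reads in the same library, 2 and 4 in the other autograft libraries and 0 to 3 in native ones. The 3 genes thus came from 1 library, which also had 12.5 CPM of the neutrophil gene CSF3R (at most 0.43 elsewhere) and 38.2 CPM of the erythroid gene ALAS2 (at most 0.15 elsewhere). CXCR3, the T cell receptor of CXCL9 and CXCL10, had 10, 10 and 5 reads in the autograft and at most 2 in a native library. CCR8, the receptor of CCL1 on helper and regulatory T cells, had 18, 16 and 6 reads in the autograft and at most 4 in a native library. CCR3 had 4, 3 and 6 reads in the autograft, 2, 1, 0 and 0 in aortic and 0 in all pulmonary libraries. With no filter, CCR3 and CCR7 were called higher than in pulmonary sinus and CCR4 was not (adjusted p = 0.0597).

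Ligands and their receptors were set side by side against pulmonary sinus. CXCL12 at 1.57 went with CXCR4 at 2.36 and ACKR3 at 0.80 (log2 fold changes), and CXCL16 at 1.40 went with CXCR6 at 3.94. CXCL12, CXCR4 and CXCL16 were called, as was CXCR6, which was tested through the autograft alone. CCL19 at 3.79 stood beside ACKR4 at 1.30, of which CCL19 was called. CCL21 at -1.54 had the opposite sign to ACKR4, and CX3CL1 at -0.74 to CX3CR1 at 0.28. CCL27 stood at -0.60 with CCR10 at -1.63. CCL21, ACKR4, CX3CL1, CX3CR1, CCL27 and CCR10 were not called by edgeR. In the other pairs considered, at most 1 side was tested.

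Genes that carry the signal of chemokine receptors were described from a list of 79, of which 75 were tested. Against pulmonary sinus 12 were called higher and 3 lower, against 6.05% and 5.29% of all genes, with a median log2 fold change of 0.07. RAC2, the Rac GTPase of blood cells, was at 14.4, 14.4 and 10.6 CPM in the autograft, 5.88, 5.55, 3.16 and 4.83 in aortic and 4.07, 1.03, 1.22 and 1.89 in pulmonary sinus, a log2 fold change of 2.68 ± 0.43 (adjusted p = 0.00914). PIK3R5, a regulatory subunit of the PI3-kinase that G proteins activate, stood at 2.05 ± 0.38 (0.0135). The other 10 lay between 0.91 and 4.08.

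PRKCD, protein kinase C delta, fell. It was at 65.4, 51.1 and 59.5 CPM in the autograft, 149, 122, 144 and 138 in aortic and 149, 134, 135 and 103 in pulmonary sinus, with no overlap. Its log2 fold change was -1.15 ± 0.14 (adjusted p = 0.00420) against pulmonary sinus and -1.24 (0.00516) against aortic sinus. PAK1 and PLCB4, named after their values were seen, were the other genes called lower against pulmonary sinus. Against aortic sinus PRKCD was the 1 gene of the list called lower and 0 were called higher, against 1.43% and 0.948% of all genes. There 23 had an unadjusted p under 0.05 (23.0% of all genes), and DESeq2 called 4 higher and 2 lower (9.81% of all genes in either direction). The count of 12 was 2 without pulmonary replicate 2 or 3, 3 without autograft replicate 2, 7 without autograft replicate 1, and 5 when pulmonary replicate 4 was omitted. That of 3 lower genes was 1 when autograft replicate 1, autograft replicate 2 or pulmonary replicate 2 was left out.

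A second list held chemoattractant genes that the naming rule does not reach, 24 of them tested. Of these 6 were called higher than in pulmonary sinus and 0 lower, against 6.05% and 5.29% of all genes. They were C5AR1, DPP4, CMTM3 and LTB4R, and PTAFR and S1PR1, the last 2 named after their values were seen. C5AR1, the receptor of complement C5a, was at 44.9, 38.4 and 20.9 CPM in the autograft, 12.6, 18.1, 4.94 and 15.9 in aortic and 13.2, 4.05, 4.64 and 11.3 in pulmonary sinus, a log2 fold change of 2.07 ± 0.49 (adjusted p = 0.0263). Omitting autograft replicate 1, autograft replicate 2, pulmonary replicate 2 or pulmonary replicate 3 ended that call (0.0627 to 0.072). DPP4, a protease that trims and so inactivates CXCL12 among others, was at 33.4, 1.75 and 2.61 CPM in the autograft and between 0.515 and 1.55 in native libraries. Autograft replicate 1 thus set most of its log2 fold change of 3.70 ± 0.91 (0.0286), and without it the call ended (0.187). CMTM3 at 1.73 ± 0.43 (0.0318) and LTB4R, the leukotriene B4 receptor, at 1.71 ± 0.45 (0.0372) had their highest values in the same library. The CMTM3 call ended on omitting autograft replicate 1, autograft replicate 2, pulmonary replicate 2, pulmonary replicate 3 or pulmonary replicate 4 (0.052 to 0.0914), and the LTB4R call on omitting autograft replicate 1, autograft replicate 2, aortic replicate 4, pulmonary replicate 2 or pulmonary replicate 4 (0.0516 to 0.117). The DPP4 call ended also on omitting pulmonary replicate 2, pulmonary replicate 3 or pulmonary replicate 4. Against aortic sinus 0 of the 24 were called by edgeR (0.948% of all genes higher, 1.43% lower), 7 had an unadjusted p under 0.05 (23.0%) and DESeq2 called 3 (9.81%). The count of 6 was 1 without autograft replicate 1, autograft replicate 2, pulmonary replicate 3 or pulmonary replicate 4, and 0 without pulmonary replicate 2.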

How the data were processed

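Sinus wall RNA was extracted with TRIzol and made into TruSeq libraries, per the labels' protocols. Tools listed by the submitters' processing notes, with no role or order, are STAR 2.5.2b, featureCounts 1.5.3, Bowtie2 2.3.3.1 and cutadapt. The build, the annotation and the strand setting are not stated in those sources, so overlapping and antisense genes cannot be separated. The authors deposited raw counts and FPKM values per gene symbol, 1 table each per sequencing run (22 sample entries, 11 libraries). The 2 runs of each library were summed: their chi-square per gene was 1.36 to 1.47, while separate libraries of the same group gave 25.4 to 88.6. A row without gene name held at most 0.000522% of the counts and was left out. The deposited FPKM values are never 0, also where the count is 0 (4505 values in run 1). In 37.9% of genes in run 1 and 28.0% in run 2, the values were whole multiples of a smallest step. The median multiple of these genes was the same in all libraries (12 in run 1, 18 in run 2). Their 95th percentile differed between libraries (59 to 82.5 and 79 to 128). The distribution may thus have been equalised before deposit, which was not settled.

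All 3 groups entered one edgeR quasi-likelihood fit (R 4.3.3, edgeR 4.0.16) on summed counts with filterByExpr and TMM scaling, without a block. The fit was run on simulated counts with the same spread for every gene, so that run does not cover genes as uneven as ACKR1 or CCL21. A call is a Benjamini-Hochberg adjusted p under 0.05 over 14979 genes. SE values were back-calculated as the absolute log2 fold change divided by the square root of the test's F statistic. CPM came from TMM-scaled library sizes. Alternatives used DESeq2 1.42.0, limma 3.58.1 on voom weights or on log2(FPKM + 1) and log2(FPKM + 0.1), other filters and scaling, single runs and left-out libraries. Aortic and pulmonary libraries are paired by animal, per the labels. The deviations from group means correlated at -0.18 in animal D3, -0.13 in D4, 0.43 in D5, 0.45 in D6, at 0.40 between aortic D4 and pulmonary D3, and at 0.26 between aortic D3 and pulmonary D4. Whether D3 and D4 were exchanged in one tissue cannot be settled from the labels, so leaving out animal D3 means the 2 libraries that carry this label.

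The members, lists and tests were chosen with earlier results of these data known. Values in every library are given for members called in a comparison, for up to 6 others per comparison with the smallest p, and for the 6 with the highest FPKM. From each further list the called genes with the smallest p are named, up to 4. RefSeq gene names (assembly ARS-UI_Ramb_v3.0) matched 40 of 42 members and served for gene order. Among the genes that the naming rule and the signalling list reach, 1 each is not reported here and is left out of all counts of members, but not of the fit. Each replicate is another animal, as the labels give it.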

Additional observations from a re-analysis of the deposited data

Results flagged for a closer look

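Among the 4 aortic and the 4 pulmonary libraries of each of the 24 tested members, 48 groups in all, 4 held a library set far apart from the other 3 on the log2(CPM + 0.1) scale, where chance flags about 1 in 20. CCL26 was at 11.6 CPM in pulmonary replicate 1 and between 1.31 and 1.72 in the others. CXCL9 was at 5.43 CPM in pulmonary replicate 3 and between 1.19 and 1.37 in the others. CCL25 was at 3.96 CPM in aortic replicate 3 against 2.38 to 2.6. CCL27 was at 1.15 CPM in aortic replicate 2 against 1.89 to 1.99. No explanation was tested for these values.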

How the results depend on the processing

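Against pulmonary sinus, the 7 members called higher were 4 with a mean of at least 1 CPM as filter, 4 with the 2 groups fitted alone, 4 from run 1 alone and 3 to 9 with 1 library left out. The 12 higher signalling genes were 5 with the 2 groups alone, 6 from run 1 and 2 to 14 with 1 library left out; the 3 lower ones were 5 by DESeq2, 1 with the 2 groups alone and 1 to 4 with 1 library left out. The 6 related chemoattractant genes were 2 with the 2 groups alone, 2 with limma on either FPKM scale and 0 to 7 with 1 library left out.

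Against aortic sinus, the 1 called member became 0 with a mean of at least 1 CPM, from run 1, from run 2 or without animal D3, 7 by DESeq2, 3 by limma-voom, 3 with the 2 groups alone, 2 with limma on either FPKM scale and 0 to 3 with 1 library left out. The 0 higher signalling genes became 4 by DESeq2, 2 by limma-voom, 1 with the 2 groups alone, 1 from run 2, 1 on log2(FPKM + 1) and 0 to 1 with 1 library left out, and the 1 lower gene became 2 by DESeq2 and 2 on either FPKM scale. The 0 related genes became 3 by DESeq2 and 0 to 1 with 1 library left out. The causes were not tested.

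With animal as a random replicate block in limma-voom, 7 members were called against pulmonary sinus, where CCL19 lost its call (adjusted p = 0.0965) and CCL26 gained one, and 3 against aortic sinus. That block called 1 higher signalling gene against aortic sinus. In aortic against pulmonary sinus the block called 0 members, also as a fixed term in edgeR.

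CCL21 against pulmonary sinus turned from -1.54 to 1.12 without animal D3 and ran from -2.93 to 1.10 with 1 library left out; CX3CL1 ran from -1.14 to 0.21. Of 968 alternative values of single genes, 871 kept direction and side of the threshold, 62 lost the call, 32 gained one and 3 turned direction. Members with few reads are limited by depth: XCL1, CCR4 and CXCR6 had at most 43 reads in a library.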
